A study of Saccharomyces cerevisiae with 3 samples.

Results

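The 10 genes described here carry a yeast cell from aspartate through homoserine to methionine, and from methionine to S-adenosylmethionine and back. They were chosen by name as *HOM3*, *HOM2*, *HOM6*, *MET2*, *MET17* (the array's name for *MET15*), *MET6*, *SAM1*, *SAM2*, *SAH1* and *MHT1*. Each is represented by 1 probe set of the Affymetrix Yeast Genome 2.0 array, so that they make up 10 of the 5449 *S. cerevisiae* genes that the array's annotation names. All were measured on every array. The arrays held total RNA from haploid cells of 3 genotypes, wild-type, *met15Δ* and *rtg3Δ met15Δ*, with 1 array per genotype and no replicate, harvested on Day 3 of culture in synthetic complete medium. All strains, wild-type included, carry *his3Δ1*, *leu2Δ0* and *ura3Δ0*. The *MET15* deletion left no marker, whereas *RTG3* was replaced by KanMX. The arrays were made to ask which genes respond to the loss of *MET15*, as a genetic form of methionine restriction, and which of these responses need the retrograde transcription factor Rtg3.

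In budding yeast, aspartate is phosphorylated and reduced in successive steps to homoserine, the last intermediate that methionine and threonine share. On the methionine branch homoserine is acetylated, and the sulfhydrylase encoded by *MET15* joins O-acetylhomoserine with sulfide to give homocysteine. Homocysteine is methylated to methionine, methionine is adenylated to S-adenosylmethionine, the methyl donor of most methylation reactions, and the S-adenosylhomocysteine left by those reactions is hydrolysed back to homocysteine. Most genes of sulfate assimilation and several of these are known targets of the activator Met4.

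The values are signals from robust multi-array averaging (RMA) on a linear scale, and a gene was called higher or lower where the signals of a pair of arrays were at least 2-fold apart. A change in *met15Δ* cells was called *RTG3*-dependent where its fold change was also at least 2-fold smaller in *rtg3Δ met15Δ* cells. With 1 array per genotype there is no estimate of the spread between cultures, so no difference carries an error or a test, and the number of arrays limits the precision. Cells that lack *RTG3* but keep *MET15* were not among the arrays analysed here, so what the *RTG3* deletion does by itself and what it does to the *met15Δ* response cannot be told apart. Signals of a gene are listed in the order wild-type, *met15Δ*, *rtg3Δ met15Δ* where no genotype is named. The probe sets for genes of another yeast species gave signals of up to 273, 273 and 289 on the wild-type, *met15Δ* and *rtg3Δ met15Δ* arrays. All 10 genes lay above that level on the wild-type array and 9 of 10 on each mutant array. The *RTG3* signals were 2703, 2215 and 28.7, at least 7.66-fold lower in *rtg3Δ met15Δ* than in *met15Δ* cells. *LEU2* and *URA3*, deleted in all strains, had signals of 40.6 and 30.8 on every array, while *HIS3*, deleted in part, kept signals of 4271 to 18655. Whether the *HIS3* probes lie in the deleted stretch was not tested.

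As compared with wild-type, *met15Δ* cells had more *HOM6* and *MHT1* transcript and less *MET17*, *SAM1* and *SAH1* (2 of 10 genes higher and 3 of 10 lower). Over the whole array 8.97% of probe sets were higher and 5.91% lower, and among *S. cerevisiae* probe sets 16.8% were higher and 11.1% lower. When *RTG3* was deleted as well, *SAM2* and *MHT1* were higher and *HOM6*, *HOM2* and *SAM1* lower than in *met15Δ* cells. These counts of 2 and 3 stand against 6.03% higher and 5.49% lower over all probe sets, or 10.4% and 10.6% of the *S. cerevisiae* ones. Set against wild-type, *rtg3Δ met15Δ* cells had 2 of the 10 genes higher (*SAM2* and *MHT1*) and 5 lower (*HOM2*, *MET17*, *MET6*, *SAM1* and *SAH1*), where the array as a whole had 11.3% higher and 8.89% lower, and its *S. cerevisiae* probe sets 21.1% and 17.2%. *HOM6* was the 1 gene of the 10 whose change was *RTG3*-dependent, a call that 2.88% of all probe sets and 5.24% of the *S. cerevisiae* ones received. *SAM1* and *MHT1* changed at least 2-fold in the same direction at both steps, as 1.2% of all and 2.33% of *S. cerevisiae* probe sets did. *HOM3* and *MET2* were within 2-fold in every comparison. The same shares of all probe sets and of the *S. cerevisiae* ones are the background for the counts in the other gene lists below.

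**Figure D1:**
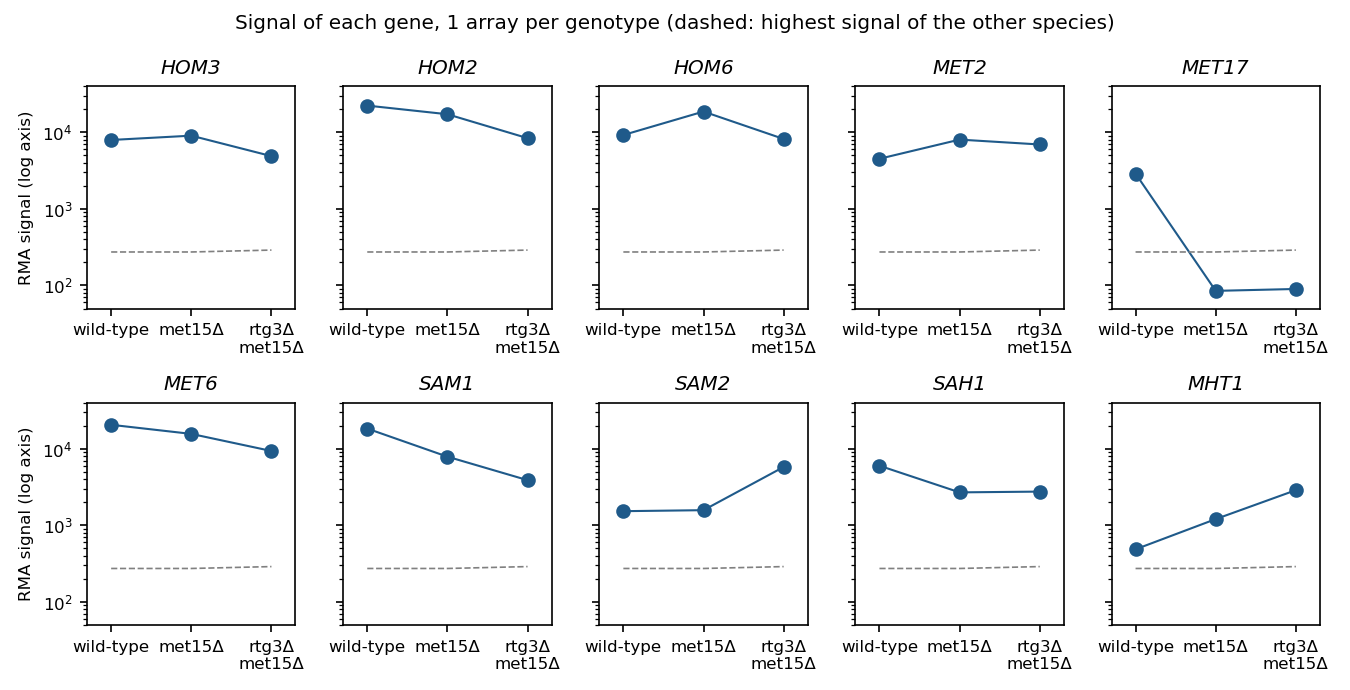
RMA signal (log axis) of each of the 10 genes on the 1 array of each genotype, with a dashed line at the top signal among the other species' probe sets. *MET17* drops under the dashed line in both mutants, *SAM1* steps down and *MHT1* steps up at each deletion, and *HOM6* is high on the *met15Δ* array.

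Across the 10 genes the log2 ratios had medians of -0.17 for *met15Δ* over wild-type, -0.48 for *rtg3Δ met15Δ* over *met15Δ* and -0.91 for *rtg3Δ met15Δ* over wild-type, against 0.07, -0.02 and 0.09 over all 5449 genes. *MET17* is the deleted gene, and without it the medians of the other 9 were 0.04, -0.74 and -0.70. The comparisons share arrays and are given side by side. With the deposited signals these 9 did not move as a block. In *met15Δ* over wild-type 2 were higher and 2 lower. Between the mutants 2 were higher and 3 lower, and in *rtg3Δ met15Δ* over wild-type 2 were higher and 4 lower. With scaling to the bacterial controls, the deleted *MET17* was the only gene lower in *met15Δ* over wild-type. The genes are taken in the order of the pathway.

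The first of them, *HOM3*, encodes aspartate kinase, the entry step that threonine inhibits. Signals of 7904, 8997 and 4865 were measured for it on the wild-type, *met15Δ* and *rtg3Δ met15Δ* arrays. The double mutant was the lowest, 1.85-fold below *met15Δ* and 1.62-fold below wild-type, neither of which reached 2-fold. With scaling to the array median or to the bacterial controls *HOM3* did pass 2-fold between the mutants, with a log2 ratio as low as -1.66. With scaling to the array median it was also lower in the double mutant than in wild-type (-1.20), which made 6 of the 10 genes lower in that comparison.

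*HOM2*, for aspartate-semialdehyde dehydrogenase, gave signals of 22208, 17127 and 8345. The level was thus lower at each step, 1.30-fold (but higher, with a log2 ratio of 0.17, with scaling to the bacterial controls) and then 2.05-fold. The double mutant was 2.66-fold below wild-type. *HOM2* was within 2-fold between the mutants when the arrays were scaled to their *S. cerevisiae* median (log2 ratio -0.95 in place of -1.04).

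*HOM6*, for homoserine dehydrogenase, which makes homoserine itself, went another way. Signals of 9175, 18567 and 8147 placed *met15Δ* alone at the high end, with the double mutant next to wild-type. The gene was 2.02-fold higher in *met15Δ* cells relative to wild-type and 2.28-fold lower in *rtg3Δ met15Δ* than in *met15Δ*, and the double mutant was 1.13-fold below wild-type. The higher call in *met15Δ* lay just past 2-fold, with a log2 ratio of 1.02 that moved between 0.71 and 1.56 over 3 other scalings of the arrays, while the lower call between the mutants held under all 3 (log2 ratios of -1.96 to -1.10). The *RTG3*-dependent call of *HOM6* was therefore lost under both median scalings.

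Within the homoserine steps the genes parted in the first comparison and moved together in the second. The log2 ratio of *HOM6* in *met15Δ* over wild-type exceeded that of *HOM2* by 1.39, a 2.62-fold difference, and that of *HOM3* by 0.83. Between the mutants the same differences were -0.15 and -0.30, all 3 genes being lower in *rtg3Δ met15Δ*. Such differences between genes of the same arrays do not depend on how the arrays are scaled.

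*MET2*, for homoserine O-acetyltransferase, commits homoserine to methionine. It gave signals of 4494, 7995 and 6902. Both mutants lay above wild-type, by 1.78-fold and 1.54-fold, and they were 1.16-fold apart, with no pair of arrays reaching 2-fold. *MET2* reached 2-fold above wild-type in *met15Δ* cells only with scaling to the bacterial control transcripts (log2 ratio 1.37).

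The threonine branch, which takes the same homoserine, differed from *MET2*. *THR1*, for homoserine kinase, had signals of 7370, 3160 and 1221, lower by 2.33-fold (within 2-fold, at a log2 ratio of -0.68, with scaling to the bacterial controls) and then by 2.59-fold. *THR4*, for threonine synthase, had 14679, 10684 and 2696, and was 3.96-fold lower in *rtg3Δ met15Δ* than in *met15Δ* cells. Both genes of the branch were lowest in the double mutant, where *MET2* was not. The log2 ratio of *MET2* over wild-type exceeded that of *THR1* by 2.05 in *met15Δ* and by 3.21 in *rtg3Δ met15Δ* cells, the latter a 9.27-fold difference, and exceeded that of *THR4* by 1.29 and 3.06. Of the 6 measured genes for aspartate supply and the threonine branch (7 listed), 0 were higher in any comparison, while 1, 2 and 3 were lower in *met15Δ* over wild-type, between the mutants and in *rtg3Δ met15Δ* over wild-type. Their medians were -0.27, -0.47 and -0.69. The other 4, the aspartate aminotransferases *AAT1* and *AAT2* and the pyruvate carboxylases *PYC1* and *PYC2*, stayed within 2-fold except *AAT1*, which was 2.09-fold lower in *rtg3Δ met15Δ* than in wild-type.

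**Figure D2:**
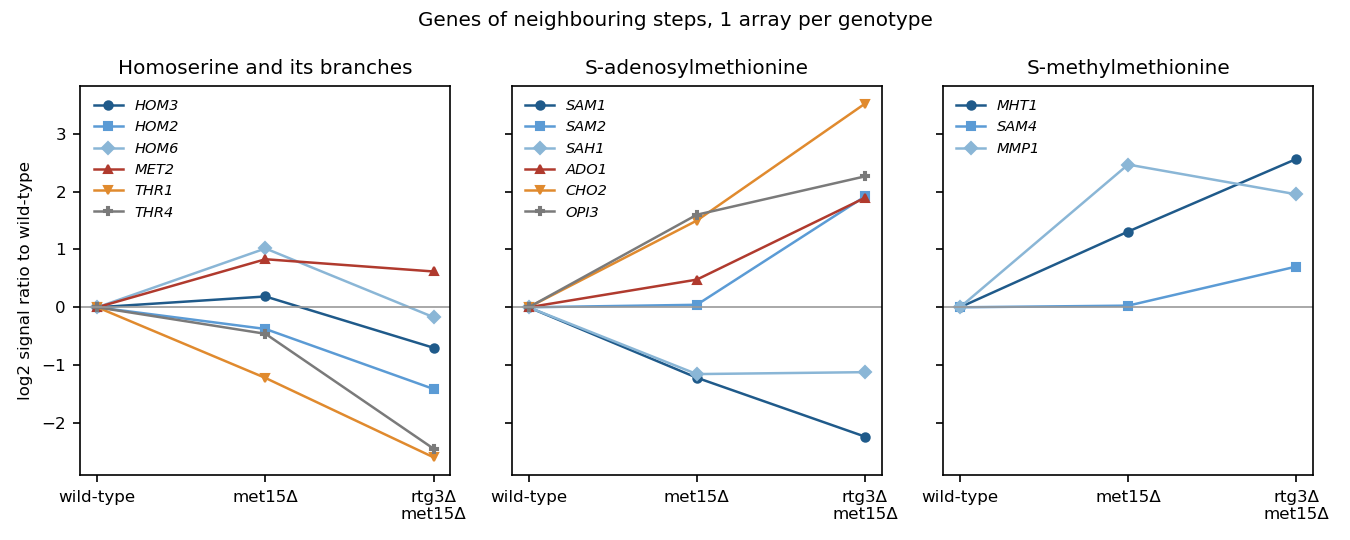
Log2 signal ratio to the wild-type array for genes around homoserine (left), S-adenosylmethionine (middle) and S-methylmethionine (right), 1 array per genotype. *MET2* ends at 0.62 and *THR1* at -2.59 in *rtg3Δ met15Δ* cells, and *SAM2* ends at 1.92 and *SAM1* at -2.24.

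*MET17*, which encodes O-acetylhomoserine sulfhydrylase, was the deleted gene. Its signals were 2874, 85.0 and 89.9. Both mutant values lay among those of the other species' probe sets, so that the gene was at least 10.5-fold lower in *met15Δ* and at least 9.94-fold lower in *rtg3Δ met15Δ* than in wild-type, and no fold is given between the mutants. The enzyme takes sulfide as its other substrate. Of the 9 genes that supply sulfide, 6 were higher and 0 lower in *met15Δ* cells relative to wild-type, with a median of 1.46 on the log2 scale. *MET10*, for a sulfite reductase subunit, had signals of 2882, 10020 and 12241, and *MET1*, for siroheme synthesis, 1498, 4339 and 5762. In *met15Δ* cells they were thus 3.48-fold and 2.90-fold above wild-type, and they stayed high when *RTG3* was deleted. *MET5*, for the other sulfite reductase subunit, had 1171, 11981 and 3706. It was 10.2-fold higher in *met15Δ* cells and then 3.23-fold lower, so its change was *RTG3*-dependent, and both calls held under all 3 rescalings. The double mutant was still 3.16-fold above wild-type. *SUL1*, another of the 9, had 7384, 16692 and 6476 and was also *RTG3*-dependent with the deposited signals. Its log2 ratio in *met15Δ* over wild-type was 1.18. Scaling to the array median shifts that ratio by -0.30, to within 2-fold, so the *RTG3*-dependent call of *SUL1* was lost there. *MET3*, for ATP sulfurylase, had 183, 1657 and 1537, at least 6.06-fold higher in *met15Δ* cells. All 10 pathway genes had lower log2 ratios than *MET5* and *MET3* in *met15Δ* over wild-type, up to the 1.31 of *MHT1*. Between the mutants 1 of the 9 sulfide genes was higher and 2 lower (median -0.07), and against wild-type the double mutant had 5 higher and 0 lower (median 1.66).

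*MET6* encodes the cobalamin-independent methionine synthase, which methylates homocysteine. Signals of 20472, 15576 and 9318 put it lower at each step, by 1.31-fold (but higher, with a log2 ratio of 0.15, with scaling to the bacterial controls) and 1.67-fold. That scaling also took *MET6* past 2-fold between the mutants, at a log2 ratio of -1.51. Across both steps it was 2.20-fold lower in the double mutant than in wild-type, a call that all 3 rescalings kept (log2 ratios of -1.63 to -1.09).

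The folate genes that feed methionine synthase ran the same way in part. *SHM2*, for the cytosolic serine hydroxymethyltransferase, had signals of 29129, 26310 and 9546, and was 2.76-fold lower in *rtg3Δ met15Δ* than in *met15Δ* cells. *MET12*, for a methylenetetrahydrofolate reductase, had 16387, 7384 and 4831, already 2.22-fold lower in *met15Δ* cells than in wild-type, though within 2-fold with scaling to the bacterial controls (log2 ratio -0.61). That scaling alone took *MET12* past 2-fold between the mutants (-1.39). The remaining genes were *MET7*, *MET13* and *SHM1*, and *MET13*, for the other methylenetetrahydrofolate reductase, had signals of 815, 1393 and 812, highest in *met15Δ* cells. Of the 5, 0 were higher in any comparison, and 1, 1 and 3 were lower in *met15Δ* over wild-type, between the mutants and in *rtg3Δ met15Δ* over wild-type, with medians of -0.15, -0.61 and -1.13.

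The genes for S-adenosylmethionine synthetase, *SAM1* and *SAM2*, parted. For *SAM1* the signals were 18272, 7859 and 3881. It was lower at both steps, 2.33-fold and 2.03-fold, and 4.71-fold lower in *rtg3Δ met15Δ* than in wild-type. *SAM2* had signals of 1528, 1575 and 5766. The wild-type and *met15Δ* arrays were 1.03-fold apart and the double mutant alone was high, 3.66-fold above *met15Δ* and 3.77-fold above wild-type. Among the ratios of the *S. cerevisiae* probe sets in *rtg3Δ met15Δ* over wild-type, *SAM1* lay at the 3.51 percentile and *SAM2* at the 94.2 percentile.

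The log2 ratio of *SAM2* exceeded that of *SAM1* by 1.26 in *met15Δ* over wild-type, by 2.89 between the mutants and by 4.15 in *rtg3Δ met15Δ* over wild-type, the last a 17.8-fold difference. With 100 added to every signal the 3 differences were 1.25, 2.81 and 4.06. Both genes encode the same enzyme, and each has its own probe set. How far RNA of one binds the probes of the other was not tested, since probe sequences were not used here. The *SAM1* call between the mutants lay near the limit and was lost with scaling to the *S. cerevisiae* median (log2 ratio -0.93) and, by a narrow margin, with 100 added to every signal. Its call in *met15Δ* over wild-type was lost with scaling to the bacterial controls (-0.68). The higher calls of *SAM2* held under all 3 rescalings, with log2 ratios of 1.10 to 1.96 between the mutants.

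*SAM2* is known to respond to inositol and choline, as are *CHO2* and *OPI3*, the phospholipid methyltransferases that use much of the cell's S-adenosylmethionine. *CHO2* had signals of 1505, 4253 and 17259, higher by 2.83-fold and then by 4.06-fold. *OPI3* had 4013, 12162 and 19261, which was 3.03-fold and then 1.58-fold higher. Both were highest in the double mutant, as *SAM2* was, but both were already past 2-fold in *met15Δ* cells, where *SAM2* was not. *ERG6*, for the sterol methyltransferase, had 568, 538 and 1567, with the double mutant alone high (within 2-fold of *met15Δ*, at a log2 ratio of 0.77, with scaling to the bacterial controls, and of wild-type, at 0.97, with scaling to the array median), and *TMT1*, for trans-aconitate methyltransferase, had 4682, 5259 and 2100.3, with the double mutant alone low. Of the 6 methyltransferase genes, 2 were higher and 1 lower both in *met15Δ* over wild-type and between the mutants, and 3 were higher and 1 lower in *rtg3Δ met15Δ* over wild-type, with medians of 0.52, 0.47 and 1.09.

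*SAH1*, for S-adenosylhomocysteine hydrolase, clears the product that those methyltransferases leave. Its signals were 5985, 2689 and 2751. Both mutants were low, 2.23-fold and 2.18-fold below wild-type, and they were 1.02-fold apart. *SAH1* was the 1 gene besides *MET17* that was called lower in both mutants but not between them. The call in *met15Δ* over wild-type was lost with scaling to the bacterial controls (log2 ratio -0.61), and the call in the double mutant held under all 3 rescalings. *ADO1*, for the adenosine kinase that removes the other product of the hydrolase, had signals of 877, 1221 and 3254. It was 2.66-fold higher in *rtg3Δ met15Δ* than in *met15Δ* cells, a call that was lost with scaling to the bacterial controls (log2 ratio 0.64), in the pair of arrays where *SAH1* was 1.02-fold apart. In *met15Δ* over wild-type *ADO1* passed 2-fold only with that scaling (log2 ratio 1.02).

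*MET6* and *SAH1*, which bracket the cycle between methionine and homocysteine, reached nearly the same distance from wild-type in the double mutant by different steps. Their log2 ratios in *rtg3Δ met15Δ* over wild-type were -1.14 and -1.12. In *met15Δ* over wild-type they were -0.39 and -1.15, and between the mutants -0.74 and 0.03.

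*MHT1* encodes S-methylmethionine-homocysteine methyltransferase, which makes methionine from homocysteine with S-methylmethionine, a compound that yeast takes up from outside, as methyl donor. The wild-type array gave it a signal of 486, the *met15Δ* array 1205 and the *rtg3Δ met15Δ* array 2874. The gene was higher at each step, 2.48-fold and 2.39-fold, and 5.91-fold higher in the double mutant than in wild-type, at the 98.0 percentile of the *S. cerevisiae* probe sets. The first call held under all 3 rescalings (log2 ratios of 1.01 to 1.85), and the call between the mutants was lost with scaling to the bacterial controls (0.48).

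*MMP1*, for the S-methylmethionine permease, stands beside *MHT1* in the genome, yet its signals of 1102, 6097 and 4268 put *met15Δ* and not the double mutant highest. In *met15Δ* cells *MMP1* was 5.53-fold above wild-type, a fold change 2.23-fold larger than that of *MHT1*, while between the mutants the ratio of *MHT1* was 3.41-fold above that of *MMP1*. *MMP1* was 1.43-fold lower in *rtg3Δ met15Δ* than in *met15Δ* cells, and past 2-fold only with scaling to the bacterial controls (log2 ratio -1.29). *SAM4*, for the related enzyme that uses S-adenosylmethionine in the same reaction, had signals of 468.6, 478 and 763, within 2-fold throughout. The log2 ratio of *MHT1* exceeded that of *SAM4* by 1.28, 0.58 and 1.86 in the 3 comparisons. Of the 5 genes for use and uptake of S-methylmethionine and S-adenosylmethionine, 1, 1 and 2 were higher and 0 lower, with medians of 0.03, 0.65 and 0.70. Of the *S. cerevisiae* probe sets 16.8%, 10.4% and 21.1% were higher and 11.1%, 10.6% and 17.2% lower.

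**Figure D3:**
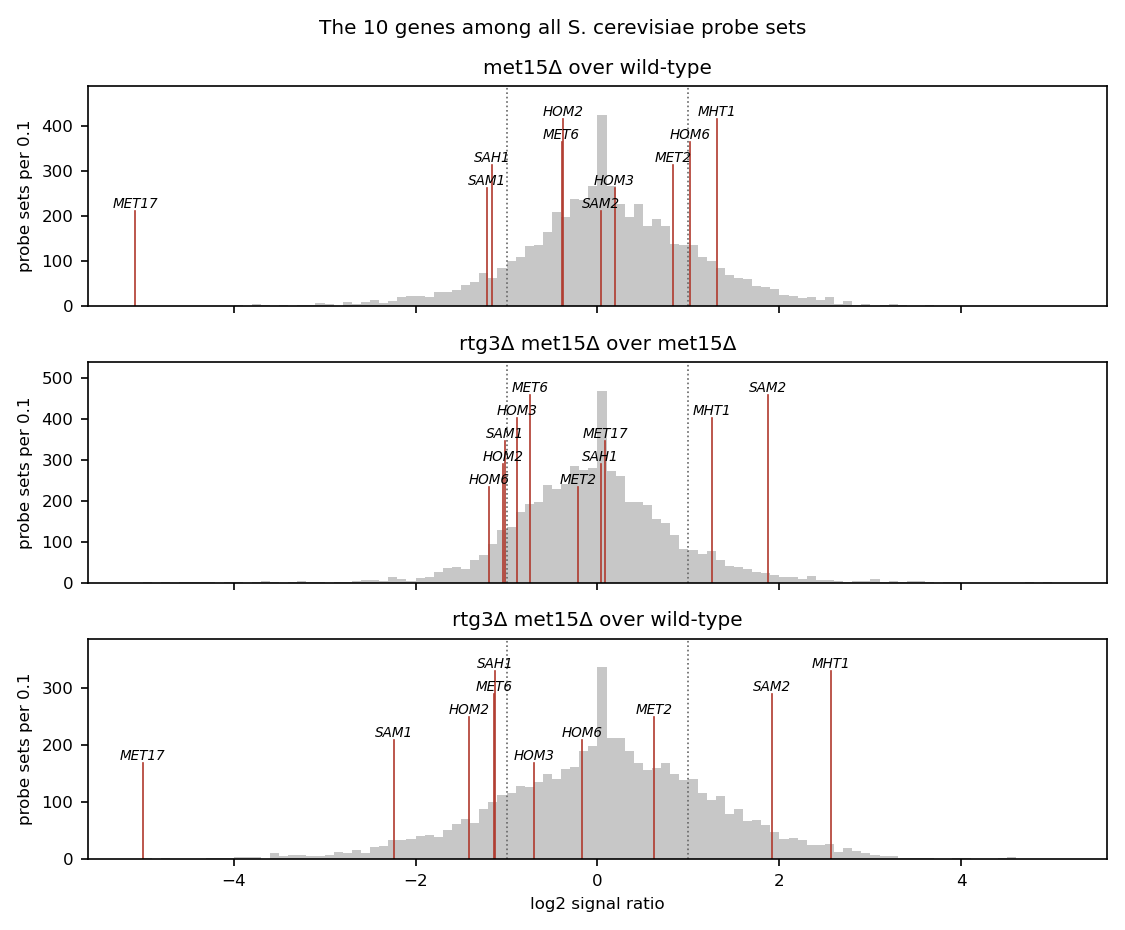
Number of *S. cerevisiae* probe sets (vertical axis) by log2 signal ratio (horizontal axis) in each comparison, with the 10 genes as labelled lines and the 2-fold limits dotted. *MET17* lies far left in both comparisons with wild-type. Of the 10 genes, *SAM2* and *MHT1* lie furthest right in *rtg3Δ met15Δ* over wild-type, at the 94.2 and 98.0 percentiles.

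Homocysteine can also be passed to cysteine. *CYS4*, for cystathionine beta-synthase, had signals of 10764, 15548 and 7725, high in *met15Δ* cells and 2.01-fold lower in *rtg3Δ met15Δ*. It was the 1 gene of 4 for transsulfuration that was past 2-fold between the mutants, and it was within 2-fold with scaling to the *S. cerevisiae* median (log2 ratio -0.92). With the deposited signals no gene of that list was past 2-fold in *met15Δ* over wild-type (median 0.24). In *rtg3Δ met15Δ* over wild-type 1 was higher, and the list median was -0.48. With scaling to the bacterial controls *CYS4* passed 2-fold in *met15Δ* over wild-type (log2 ratio 1.07). It was then lower between the mutants (-1.78), and so *RTG3*-dependent with that scaling.

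Among the regulators of the pathway, *MET4*, the activator, had signals of 6613, 6031 and 5155, and *GCN4*, the activator of amino acid synthesis, had 25151, 24589 and 25779, both within 2-fold on all arrays. Of the cofactors that help Met4 bind DNA, *CBF1* was also within 2-fold, with 987, 987 and 730, and the others were not. *MET32* had 559.5, 2193 and 7746, higher at each step as *MHT1* was, and *MET31* had 3696, 495 and 413, lower in both mutants. Between the mutants *MET31* passed 2-fold only with scaling to the bacterial controls (log2 ratio -1.03). *MET28* had 1778, 5364 and 5634, high in both mutants. *MET30*, the last of the 7 regulators, had 4634, 9252 and 11635. It was just within 2-fold of wild-type in *met15Δ* cells (log2 ratio 0.997), but past it with scaling to the bacterial controls, which shifts that ratio by 0.54. In the double mutant *MET30* was 2.51-fold above wild-type (log2 ratio 1.33). That call was lost with scaling to the array median, which shifts the ratio by -0.50. Of the 7 regulators, 2, 1 and 3 were higher and 1, 0 and 1 lower in the 3 comparisons, with medians of 0.00, 0.07 and 0.04.

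The calls that rest least on how the arrays are scaled were those of the double mutant against wild-type. All 7 of those calls (*HOM2*, *MET17*, *MET6*, *SAM1*, *SAH1*, *SAM2* and *MHT1*) held when the arrays were scaled to their median, to the median of their *S. cerevisiae* probe sets and to the bacterial controls. In *met15Δ* over wild-type 2 of 5 calls (*MET17* and *MHT1*) held under all 3, and between the mutants 2 of 5 (*HOM6* and *SAM2*). The bacterial controls shifted every log2 ratio by 0.54 in *met15Δ* over wild-type and by -0.77 between the mutants. Whether equal amounts of them were added to each sample is not given in the sources used here.

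**Figure D4:**
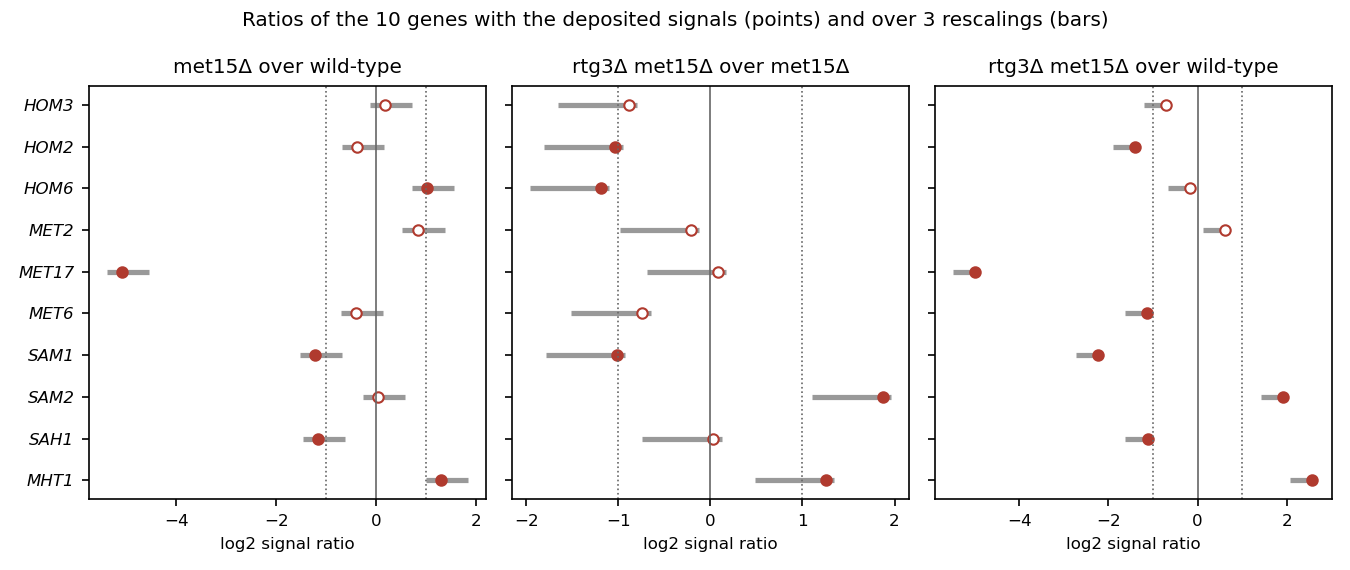
Log2 signal ratio of each gene in each comparison with the deposited signals (points, filled where at least 2-fold) and its range over the deposited signals and 3 rescalings (bars), with the 2-fold limits dotted. In *rtg3Δ met15Δ* over wild-type all 7 filled points keep their bars outside the dotted lines.

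Genes of cell mating type differed between the arrays. Of 6 genes specific to **a** cells, 5 were higher in *met15Δ* as compared with wild-type, 4 were higher in *rtg3Δ met15Δ* than in *met15Δ*, and their summed signal was 1854, 12811 and 32413. Of 4 alpha-specific genes, 2 were lower in *met15Δ* than in wild-type and 2 higher in *rtg3Δ met15Δ* than in *met15Δ*, with summed signals of 3759, 1917 and 5827. The 4 differed in course. *MF(ALPHA)1* had 344, 101 and 2807 and *SAG1* had 1007, 1232 and 1744, both highest in the double mutant. *STE3* had 2157, 454 and 1146 and *MF(ALPHA)2* had 250, 129 and 129, both highest in wild-type. *HMRA1* had 47.1, 4073 and 5015.5 and *HMLALPHA1* had 977, 71.5 and 59.7, and both share sequence with alleles of the *MAT* locus. *HMRA1* thus lay among the other species' signals on the wild-type array alone, and *HMLALPHA1* on the mutant arrays alone. The labels do not give the mating type, and for the differences of both mutants from wild-type it cannot be told apart from the deletion of *MET15*. Its part in the values of the 10 genes was not tested. The ratio of the 3′ to the 5′ probe set of *ACT1*, a sign of RNA quality, was 2.99, 2.24 and 2.37, and its part was not tested either.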

How the data were processed

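Total RNA of 3 yeast cultures, 1 per genotype, was hybridized to 3 Affymetrix Yeast Genome 2.0 arrays. The labels speak of biotinylated cRNA and the study's methods of labeled cDNA. The authors corrected the scanned intensity values for background and summarized them per probe set by RMA (RMAExpress 1.0.4). The deposited intensity signals are on a linear scale. Whether and how RMAExpress normalized the arrays is not given in the sources used here. Each array was assigned to its genotype by the submitters' labels.

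The signals were used as deposited. The platform annotation gives 1 gene symbol to 7244 of the 10928 probe sets, several to 1 and none to 3683. Those with 1 symbol comprise 5498 for *S. cerevisiae* (5449 genes) and 1746 for another species. Symbols were matched to a gene table of assembly R64, used for names and for which genes neighbour or overlap each other. No coordinates are given, sequences were not used here, and the genome build of the platform annotation is not given in the sources used.

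Ratios were taken between arrays for each probe set and called at 2-fold, the threshold of the study's methods. The values have no replicate, and no p-value was computed. Where the smaller signal fell below the maximum that the other species' probe sets reached on that array, that maximum took its place and the fold is written as a bound (at least). Shares called were counted over all probe sets and over the *S. cerevisiae* ones, with the deposited signals at 2-fold. The differences of log2 ratios were taken for 9 pairs of genes. The genes named were the 10 of the pathway, *RTG3*, and from 7 lists of neighbouring steps every gene at least 2-fold apart in *met15Δ* over wild-type or between the mutants, up to 4 a list by size. *AAT1*, *AAT2*, *PYC1*, *PYC2*, *SUL1*, *MET7*, *MET13*, *SHM1*, *SAM4*, *MET4*, *CBF1*, *MET30*, *GCN4*, the marker genes and the genome neighbours were named beside these. Members and lists were chosen with earlier results of these data known. The alternatives were 3 rescalings (array median, *S. cerevisiae* median, and the geometric mean of 21 probe sets of the bacterial controls bioB, bioC and bioD), 100 added to every signal, low signals raised to the other species' highest, and thresholds of 1.5-fold and 3-fold. The rescaling of genes of neighbouring steps was added after seeing the data. Scripts ran in Python 3.11.15 with pandas 2.3.3, numpy 2.4.6 and matplotlib 3.10.9 and were tested on simulated data.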

Additional observations from a re-analysis of the deposited data

How the results depend on the processing

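No gene of the 10 changed the direction of a call under any alternative. With scaling to the array median, 1 gene was higher in *met15Δ* over wild-type and 0 were *RTG3*-dependent, and the median log2 ratios of the 10 genes were -0.47 in *met15Δ* over wild-type, -0.67 between the mutants and -1.41 in *rtg3Δ met15Δ* over wild-type. With scaling to the *S. cerevisiae* median, 1 gene was higher in *met15Δ* over wild-type, 1 was lower between the mutants and 0 were *RTG3*-dependent, with medians of -0.21, -0.39 and -0.87. With scaling to the bacterial controls, 1 gene was lower in *met15Δ* over wild-type, and 1 was higher and 5 lower between the mutants. The medians were then 0.38, -1.25 and -1.14, so that the first changed its sign. With 100 added to every signal the medians were -0.47 between the mutants and -0.89 in *rtg3Δ met15Δ* over wild-type. Shares over all probe sets were not counted under the rescalings or at other thresholds. The counts given here for those settings therefore have no background share beside them. At a 1.5-fold threshold 5 genes were lower between the mutants. At 3-fold 0 genes were higher and 1 lower in *met15Δ* over wild-type, 1 was higher and 0 lower between the mutants, 2 were lower in *rtg3Δ met15Δ* over wild-type and 0 were *RTG3*-dependent. Each rescaling shifts every log2 ratio of a comparison by 1 value, which by construction is what moved the counts and medians under the 3 rescalings. No paired analysis was possible because there was 1 array per genotype, and for the same reason no array could be left out. Signals no higher than those of the other species' probe sets, as for *MET17* in both mutants, give only a bound.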

Other observations

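The genes next to the 10 in the R64 gene table were taken by position, whatever their values. *HOM6* is flanked by *IML1*, for a subunit of a complex that restrains TORC1, and *HIR3*, for a subunit of a nucleosome assembly complex. *IML1* had signals of 638, 1522 and 540 on the wild-type, *met15Δ* and *rtg3Δ met15Δ* arrays, and *HIR3* had 1024, 1584 and 630. Like *HOM6*, both were highest in *met15Δ* cells and lowest in the double mutant. *IML1* was 2.39-fold above wild-type (log2 ratio 1.25) and then 2.82-fold lower, which made its change *RTG3*-dependent with the deposited signals. Scaling to the array median shifts the first ratio by -0.30, to within 2-fold, so that call of *IML1* was lost there. *HIR3* was 1.55-fold higher and then 2.51-fold lower.

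The neighbours of the other genes were mixed. *SAH1*, low in both mutants, lies between *MXR1*, for a methionine sulfoxide reductase, and *ERG28*, which were high in both. *MXR1* had signals of 1882, 7136 and 5218, 3.79-fold higher in *met15Δ* cells relative to wild-type, and *ERG28* had 467, 1397 and 1674, 2.99-fold higher. *SAM1*, low in the mutants, lies beside *VTA1*, with 487, 1725 and 1519, and *YLR179C*, with 2084, 1337 and 4274, highest in the double mutant. *TRP2*, for a subunit of anthranilate synthase, lies beside *MET6* and had 3993, 3895 and 1515. It was 2.57-fold lower between the mutants, where *MET6* was 1.67-fold lower. *IES5*, on the other side of *MET6*, had 5415, 2716 and 2197, lowest in the double mutant as *MET6* was, and 2.46-fold below wild-type there. *PIC2*, for a mitochondrial carrier, lies beside *HOM3* and had 2906, 4485 and 17125, 3.82-fold higher between the mutants, where *HOM3* was 1.85-fold lower, and *JHD1*, on its other side, had 1623, 1363 and 2373, within 2-fold throughout. Beside *SAM2*, *LPP1* had 248, 393 and 768, highest in the double mutant as *SAM2* was, and *PLM2* had 69.7, 76.6 and 80.0, among the signals of the other species' probe sets. Beside *HOM2*, *SAC3* had 739, 734 and 593, and *YDR157W* was not analysed here. Beside *MET2*, *BOR1* had 576, 382 and 432 and *YNL277W-A* had 145, 145 and 331. Beside *MHT1* and away from *MMP1*, *AYT1* had 672.9 on every array. *MET17* overlaps *YLR302C* by 12 bases in that table, and *YLR302C* was not analysed here.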
